A study of Mus musculus with 20 samples.

Results

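The transcripts described here encode enzymes of xenobiotic and steroid metabolism from the cytochrome P450 (Cyp), glutathione S-transferase (Gst), UDP-glucuronosyltransferase (Ugt) and cytosolic sulfotransferase (Sult) families in the mouse uterus. They were taken by gene name from all non-control probes of the array, leaving out Cyp51 and Cyp26a1, which gave 160 probes for 113 genes. Each gene was represented by its probe with the highest mean log2 signal over the 20 arrays. A gene was kept if, in at least 1 of the 7 groups, no array read that probe as background, and 81 of the 113 genes passed, out of 21695 gene names with a tested probe on the array. By role, the 81 genes were 19 of 19 glutathione S-transferases, 28 of 43 P450s of families 1 to 3, 10 of 11 P450s of family 4, 10 of 14 P450s of sterol, bile acid, vitamin or steroid metabolism, Cyp20a1, 8 of 11 sulfotransferases and 5 of 14 UDP-glucuronosyltransferases.

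P450 enzymes are heme proteins of the endoplasmic reticulum and mitochondrion that insert an oxygen atom into lipophilic compounds, with electrons supplied by P450 reductase or ferredoxin. Transferases then attach glutathione, glucuronic acid or sulfate, which makes the product more soluble and easier to export. Families 1 to 3 act mainly on foreign compounds, family 4 mainly on fatty acids, and the remaining families mainly on sterols, bile acids, vitamins and steroid hormones. Estrogens are themselves substrates: they are hydroxylated by P450s, sulfated by Sult1e1 and glucuronidated by Ugt enzymes.

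Ovariectomized C57bl6/J females of at least 10 weeks, rested for 10 to 14 days, received 1 subcutaneous injection of 100 µl of sesame oil alone (vehicle), 250 ng estradiol (E2), 750 µg bisphenol A (BPA) or 750 µg HPTE, a metabolite of the insecticide methoxychlor. RNA of each uterus was labelled with Cy3 and hybridized alone to an Agilent 4x44K one-colour array. There were 3 arrays each for vehicle, E2 at 2 hr, BPA at 2 and 24 hr and HPTE at 2 and 24 hr, and 2 arrays for E2 at 24 hr, which the labels number replicates 2 and 3. The vehicle arrays carry the 24 hr label and served for both times, so the 6 comparisons with vehicle share the same 3 arrays, and time after injection is not matched at 2 hr. BPA and HPTE were given at a matched dose, and E2 at a different one. Whole uterus was measured, so fewer cells of a type and less RNA per cell cannot be told apart.

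Values are given as scaled intensity, which is the spot signal divided by the array's 75th percentile and multiplied by the median of those percentiles, 1679.1. Group means are geometric, log2 differences carry their standard error (SE), and adjusted p is limma's moderated test with Benjamini-Hochberg adjustment over the 32460 probes tested, with a call at an adjusted p under 0.05. Intensities of different probes are not on a common scale and were not set against each other. The share of probes read above background ranged from 72.716% to 81.352% over the arrays, and no probe of the 81 genes was saturated. All 10 epithelial markers looked up were well above background on every array. Their summed scaled intensity was 162700 to 189800 with vehicle, 466400 to 517200 with E2, 278200 to 302500 with HPTE and 224700 to 236000 with BPA at 24 hr, where 9, 9 and 3 of the 10 were called higher, and their part in the 24 hr results below was not tested. At 2 hr, 5 of 9 stroma markers were lower with BPA and 6 of 9 with HPTE, and 0 were higher. Their medians were -0.63 and -0.52, beside -0.10 and -0.09 over all probes, of which 30.2% and 28.2% were lower. The epithelial markers were 2 higher and 4 lower with BPA, and 2 higher and 0 lower with HPTE. The part of these cell types in the 2 hr results was not tested. A further 3 features of single uteri touch the results below. The 30 transcripts of a sperm cell list summed to 244500, 82910 and 73710 on the 3 vehicle arrays and to between 3895 and 32270 on the 17 others, and 28 or 29 of the 29 tested were called lower than vehicle in each treated group. The 18 transcripts of a pancreas acinar list summed to 6553000 and 374700 on E2 2 hr replicates 2 and 3, to 11500 and 28800 on the 2 E2 24 hr arrays and to between 1070 and 2149 on the 16 others, so that both E2 groups held arrays with more of them. BPA 2 hr replicate 3 stood apart from its 2 companions in several of the genes below.

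In each treated group, the share of the 81 genes called was near or below the share of all probes, except for a small excess with BPA at 24 hr. After E2 at 2 hr, 3 genes were higher and 11 lower than vehicle, which is 17.3% against 28.1% of all probes (11.1% higher and 17.0% lower). BPA at 2 hr gave 5 higher and 33 lower, 46.9% against 49.4% (19.3% higher and 30.2% lower). HPTE at 2 hr gave 5 higher and 29 lower, 42.0% against 48.1% (19.9% higher and 28.2% lower). The median log2 difference over the 81 genes was -0.45 after BPA and -0.32 after HPTE at 2 hr, beside -0.10 and -0.09 over all probes, and -0.10 after E2, beside -0.06. At 24 hr E2 gave 17 higher and 30 lower, 58.0% against 63.8% (26.3% higher and 37.6% lower). BPA at 24 hr gave 11 higher and 3 lower, 17.3% against 13.1% (5.09% higher and 8.03% lower), and HPTE 19 higher and 7 lower, 32.1% against 34.0% (14.9% higher and 19.1% lower). Across the 7 groups together, the moderated F test called 57 of the 81 genes, 70.4% against 81.3% of all probes. The split of higher and lower calls moved with the scaling. With no scaling it was 2 and 18 for E2 at 2 hr, 5 and 15 for HPTE at 2 hr, 1 and 3 for BPA at 24 hr and 7 and 6 for HPTE at 24 hr, and with scaling to 8 spike-in probes it was 5 and 8 for BPA at 2 hr, 5 and 7 for HPTE at 2 hr, 0 and 1 for BPA at 24 hr and 1 and 5 for HPTE at 24 hr. The BPA 24 hr count fell to 3 without vehicle replicate 1, to 4 without BPA 24 hr replicate 1 and to 5 without its replicate 3, and the E2 2 hr count fell to 9 without E2 2 hr replicate 2. Of the 13 genes named here and called with BPA at 24 hr, 0 kept the call under every alternative fitted with the same call rule. The counts were 14 of 27 with BPA at 2 hr, 14 of 26 with HPTE at 2 hr and 21 of 39 with E2 at 24 hr. They were 4 of 15 with E2 at 2 hr and 5 of 23 with HPTE at 24 hr. Against E2 they were 1 of 14 for BPA and 1 of 10 for HPTE at 2 hr, and 18 of 32 and 13 of 27 at 24 hr.

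**Figure D1:**
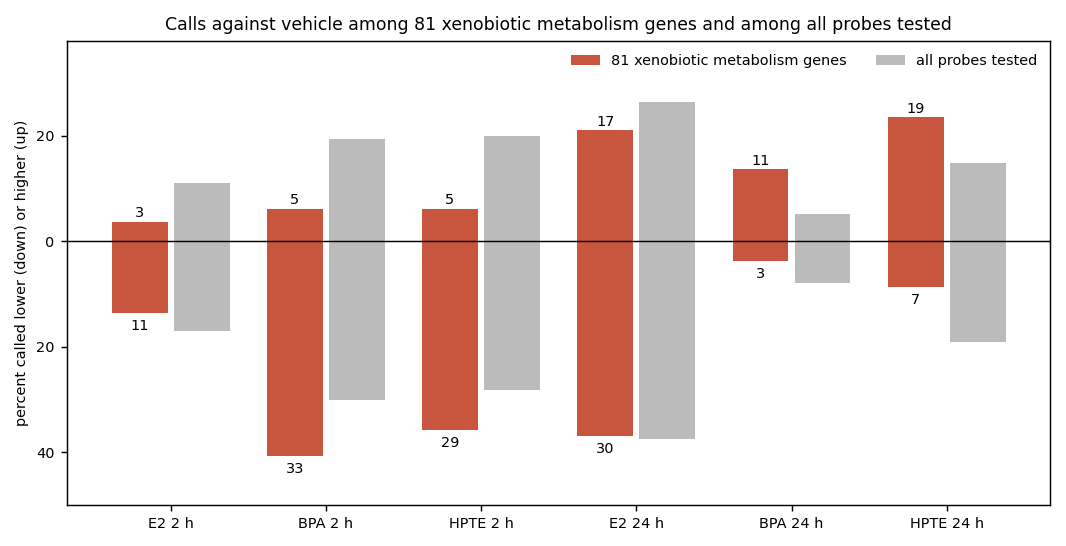
Percentage called higher (up) or lower (down) than vehicle at an adjusted p under 0.05, for the 81 genes and for all 32460 probes tested, in each treated group; the numbers at the coloured bars count the genes called. The 2 hr groups lean to lower calls among the 81 genes (11, 33 and 29 lower), while BPA and HPTE at 24 hr have more higher than lower calls (11 against 3 and 19 against 7).

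The increases at 2 hr with the largest fold among the 81 genes were in Cyp2s1, Gsta1 and Gsta2, and they followed BPA and HPTE. Cyp2s1 is an extrahepatic P450 of epithelia, and Gsta1 and Gsta2 are alpha-class transferases that conjugate glutathione to electrophiles and reduce lipid peroxides. Their RefSeq promoters, from 250 bases before to 50 after the transcription start, are shown because these genes moved together. The motif searched was GCGTG on both strands, the core bound by the aryl hydrocarbon receptor and its partner, and matches are in capitals. The windows are on GRCm38.p6 and run 5′ to 3′ on the gene's strand: Cyp2s1 at chr7:25816476-25816775, minus strand, with 0 matches, Gsta1 at chr9:78230419-78230718, plus strand, with 1 match at -2 from the start, and Gsta2 at chr9:78347096-78347395, minus strand, with 1 match at -7.
Cyp2s1: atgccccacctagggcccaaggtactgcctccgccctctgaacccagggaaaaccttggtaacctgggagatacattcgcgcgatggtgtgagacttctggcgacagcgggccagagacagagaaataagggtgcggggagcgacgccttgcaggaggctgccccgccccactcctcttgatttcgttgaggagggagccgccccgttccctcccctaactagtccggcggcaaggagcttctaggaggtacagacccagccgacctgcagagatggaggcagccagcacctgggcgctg
Gsta1: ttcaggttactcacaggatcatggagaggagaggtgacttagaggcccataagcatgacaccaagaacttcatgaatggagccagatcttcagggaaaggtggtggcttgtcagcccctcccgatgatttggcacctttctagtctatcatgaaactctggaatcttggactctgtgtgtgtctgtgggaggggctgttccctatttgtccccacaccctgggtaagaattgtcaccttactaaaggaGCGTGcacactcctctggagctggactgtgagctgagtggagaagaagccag
Gsta2: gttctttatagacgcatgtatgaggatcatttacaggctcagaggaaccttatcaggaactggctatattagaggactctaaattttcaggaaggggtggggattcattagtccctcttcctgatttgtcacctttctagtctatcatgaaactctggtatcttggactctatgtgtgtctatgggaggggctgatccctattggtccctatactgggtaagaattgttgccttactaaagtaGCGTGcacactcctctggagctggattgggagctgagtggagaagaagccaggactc
GCGTG was present in 32.4% of 32851 RefSeq promoters of this length and in 26.3% of the 76 promoters found for 64 of the 81 genes. The antioxidant response core TGACNNNGC was present in 12.4% of all promoters and 7.89% of these 76, and the consensus estrogen response element, an inverted repeat with a spacer of 3 bases, in 0.07% of all promoters and in 0 of these. A match is a description of letters in this window and not a site shown to be used.

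The Cyp2s1 probe (mm7 chr7:22576517-22576576, minus strand) read 2794, 2636 and 2468 in scaled intensity on the vehicle arrays. After 2 hr it read 10390, 12620 and 6957 with BPA and 10480, 10200 and 11150 with HPTE, but 2913, 2886 and 3546 with E2. All 6 BPA and HPTE arrays at 2 hr lay above every other array of the study. Cyp2s1 thus rose 3.69-fold with BPA (log2 difference 1.88 ± 0.17, adjusted p = 9.08e-07, limma) and 4.03-fold with HPTE (2.01 ± 0.17, adjusted p = 4.07e-07), while the E2 difference was 0.24 ± 0.17 (adjusted p = 0.342). The direct differences between groups at 2 hr were called too, at a log2 value of 1.65 for BPA over E2 (adjusted p = 9.46e-05) and 1.77 for HPTE over E2 (adjusted p = 4.86e-05), with doses that differ between E2 and the others. By 24 hr the values were back in the vehicle range or just above it, at 3375, 2582 and 3118 with BPA and 3612, 3229 and 2886 with HPTE. E2 at 24 hr gave 1778 and 1533, below every vehicle array (log2 difference -0.67 ± 0.19, adjusted p = 0.00664), a call that was lost without E2 24 hr replicate 3 (-0.56, adjusted p = 0.0682) and with spike-in scaling (-0.64, adjusted p = 0.166).

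Gsta1 read 151, 152 and 81 in scaled intensity on the vehicle arrays, 268, 459 and 301 after BPA at 2 hr and 471, 540 and 328 after HPTE at 2 hr. With E2 it read 214, 93.7 and 118 at 2 hr, overlapping vehicle, and 338 and 549 at 24 hr, above it. Gsta1 rose by a log2 difference of 1.44 ± 0.38 with BPA (adjusted p = 0.00516) and 1.83 ± 0.38 with HPTE (adjusted p = 0.000892) at 2 hr, and by 1.81 ± 0.42 with E2 at 24 hr (adjusted p = 0.0015). Gsta2 (mm7 chr9:78408171-78408230, minus strand) read 46.5, 59.8 and 34.8 on the vehicle arrays, 106, 194 and 129 after BPA at 2 hr, 205, 244 and 123.0 after HPTE at 2 hr and 138 and 258 after E2 at 24 hr, with no overlap. Its log2 differences were 1.59 ± 0.38 (adjusted p = 0.00291), 2.00 ± 0.38 (adjusted p = 0.000488) and 2.04 ± 0.43 (adjusted p = 0.000646) in these groups. E2 was thus above vehicle at 24 hr, and BPA and HPTE were above it at 2 hr. BPA at 24 hr gave Gsta1 values of 112, 99.1 and 124 and Gsta2 values of 50.4, 36.5 and 46.6, within the vehicle range. With HPTE both genes were lower at 24 hr than at 2 hr, but a return to the vehicle range is shown for BPA alone. The difference between BPA and E2 at 2 hr was called for both genes (log2 1.33 and 1.25, adjusted p = 0.0243 and 0.0328), as was the opposite difference at 24 hr (-1.95 and -2.10, adjusted p = 0.00099 and 0.000629). Of 14 named calls for BPA against E2 at 2 hr, 1 was kept under every alternative fitted with the same call rule. Spike-in scaling left 1 gene called higher in that comparison and 0 lower. The 60-base probes of Gsta1 and Gsta2 share a run of 20 bases, so the readouts of this pair may not be separate.

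**Figure D2:**
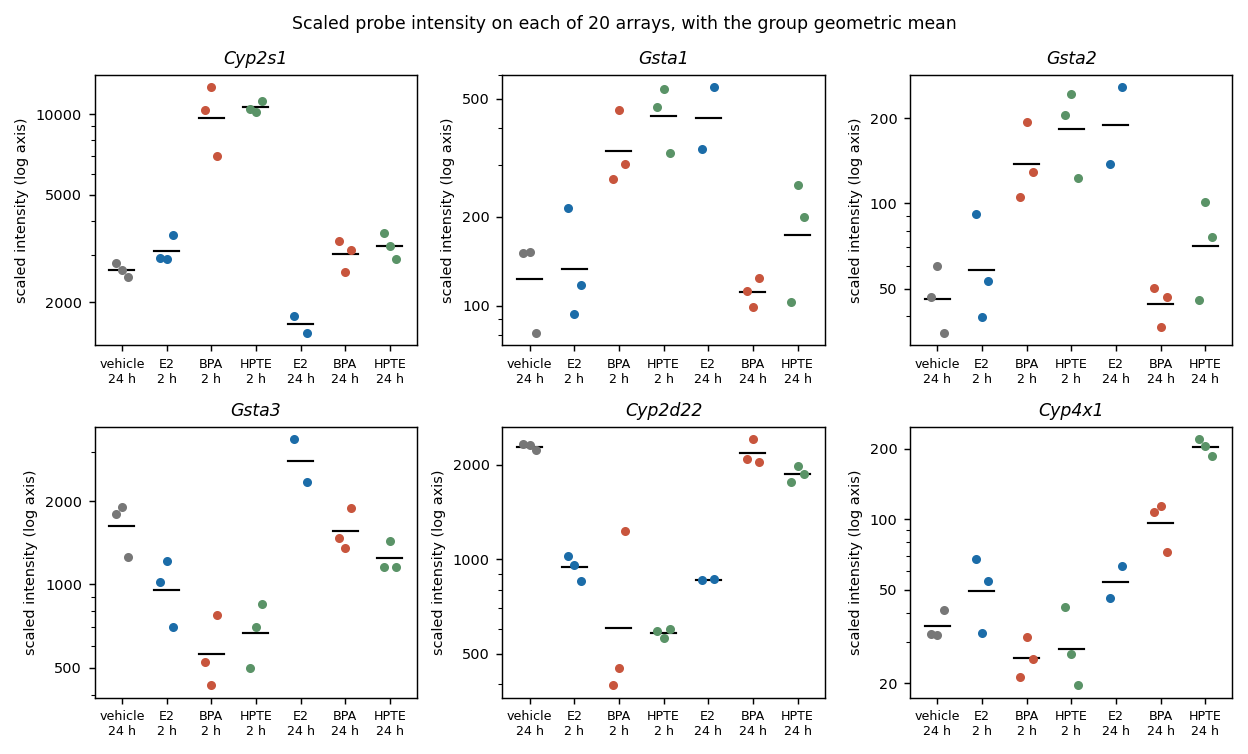
Scaled intensity (log axis) on each of the 20 arrays for 6 genes, by group; each point is 1 uterus and the bar is the geometric mean of the group. Cyp2s1, Gsta1 and Gsta2 are raised in the BPA and HPTE groups at 2 hr, Gsta3 and Cyp2d22 are lowered at 2 hr, and Cyp4x1 is raised with BPA and HPTE at 24 hr, where HPTE values of 186 to 220 lie above BPA values of 72.6 to 114.

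Most other glutathione S-transferases moved the other way with BPA and HPTE at 2 hr. Of the 19 genes, 2 were higher (Gsta1 and Gsta2) and 15 lower after BPA at 2 hr, 89.5% called against 49.4% of all probes, with a median log2 difference of -0.52 against -0.10. HPTE at 2 hr gave 2 higher and 10 lower, 63.2% against 48.1%, with a median of -0.36, and E2 at 2 hr gave 0 higher and 4 lower, 21.1% against 28.1%. With BPA at 2 hr the called decreases ran from Gstp1 (-0.28, a call ended by leaving out most single arrays of the 2 groups) to Gsta3 (-1.53), and Gsto1 and Gstt1 were not called. The shared vehicle arrays enter every one of these values. Among the named genes, spike-in scaling ended the BPA calls of Gsta4, Gstk1, Gstm1, Gstm2, Gstm4, Gstp1 and Gstz1 (adjusted p 0.184 to 0.678, limma). It also ended the HPTE calls of Gstk1, Gstm1, Gstm4, Gstm5 and Gstz1 (adjusted p 0.258 to 0.875). Over all 81 genes it left 5 higher and 8 lower with BPA and 5 and 7 with HPTE. With no scaling Gstm4 and Gstp1 were not called with BPA, nor Gstk1, Gstm1, Gstm4 and Gstz1 with HPTE.

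Gsta3, an alpha-class enzyme that also isomerizes steroid precursors, read 1798, 1902 and 1254 in scaled intensity on the vehicle arrays. At 2 hr it read 1018, 1211 and 702 with E2, 527, 432 and 776 with BPA and 501, 704 and 848 with HPTE, and at 24 hr 3349 and 2338 with E2. All 9 arrays at 2 hr lay below the vehicle arrays, and both E2 arrays at 24 hr lay above them. The log2 difference was -1.53 ± 0.27 with BPA (adjusted p = 0.000244) and -1.28 ± 0.27 with HPTE (adjusted p = 0.000949). With E2 it was -0.77 ± 0.27 at 2 hr (adjusted p = 0.0416) and 0.78 ± 0.30 at 24 hr (adjusted p = 0.0306). Both E2 calls were lost on leaving out single arrays. The 2 hr call was lost without E2 2 hr replicate 3 (-0.55, adjusted p = 0.183). It was also lost without replicate 1, where the value did not shrink (-0.82, adjusted p = 0.0642). Without the 2 arrays rich in pancreas transcripts, an alternative chosen after seeing the data, a single E2 2 hr array is left, and the value was -0.67. The 24 hr call was lost without vehicle replicate 3 (0.60, adjusted p = 0.113), and without E2 24 hr replicate 2 the value was 0.53. At 24 hr BPA and HPTE gave Gsta3 differences of -0.06 and -0.39, neither of them called.

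E2 at 24 hr split the transferases into 8 higher and 8 lower, 84.2% called against 63.8% of all probes. Gsto1, an omega-class enzyme with dehydroascorbate and methylarsonate reductase activity, rose 1.61 ± 0.13 in log2 (adjusted p = 5.41e-08), from 28780, 31890 and 31460 in scaled intensity on the vehicle arrays to 87940 and 98970. It also rose at 24 hr with BPA (42570, 45420 and 48170, log2 0.56 ± 0.11, adjusted p = 0.0043) and with HPTE (51990, 52940 and 57660, 0.82 ± 0.11, adjusted p = 8.28e-05). None of these arrays overlapped vehicle, and the E2 arrays lay above the BPA and HPTE arrays. The Gsto1 call with BPA was lost with no scaling (0.45, adjusted p = 0.0634), slide as a block (0.51, adjusted p = 0.0667) and spike-in scaling (0.44, adjusted p = 0.719). With HPTE it was lost with spike-in scaling (0.52, adjusted p = 0.212). Alpha-class Gsta4, which detoxifies 4-hydroxynonenal, rose by 0.56 with E2 (adjusted p = 0.00135) and 0.53 with HPTE (adjusted p = 0.0026) at 24 hr, and BPA gave 0.26 (adjusted p = 0.162). The Gsta4 call with HPTE was lost with no scaling (0.42, adjusted p = 0.0691), slide as a block (0.40, adjusted p = 0.0813) and spike-in scaling (0.24, adjusted p = 0.603). With E2 it was lost with spike-in scaling (0.59, adjusted p = 0.14). Gstm4 rose by 0.75 with E2 (adjusted p = 0.00028), 0.46 with BPA (adjusted p = 0.0273) and 0.82 with HPTE (adjusted p = 0.000206), the BPA call being lost without BPA 24 hr replicate 1 (0.35, adjusted p = 0.142) or vehicle replicate 1 (0.33, adjusted p = 0.147). Gstk1, the kappa-class enzyme of mitochondria and peroxisomes, rose by 0.38 with E2 (adjusted p = 0.00711) and 0.58 with HPTE (adjusted p = 0.000458), the former not without E2 24 hr replicate 2 (0.26, adjusted p = 0.115) or under quantile scaling (0.21, adjusted p = 0.13). Gstp1, the pi-class enzyme, rose by 0.49 with E2 alone among the 24 hr groups (adjusted p = 0.00298), a call lost without E2 24 hr replicate 3 (0.37, adjusted p = 0.057). Under quantile scaling the Gstp1 value was 0.08 (adjusted p = 0.546), and 0.16 with normexp background correction as well (adjusted p = 0.203). Spike-in scaling ended the 24 hr increases of Gstm4, Gstk1 and Gstp1 as calls (adjusted p 0.0805 to 0.832).

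The mu-class genes made up most of the E2 decreases at 24 hr. Gstm1 read 166400, 145300 and 142100 in scaled intensity on the vehicle arrays and 72910 and 67530 after E2 at 24 hr, a log2 difference of -1.11 ± 0.10 (adjusted p = 2.79e-07). The log2 difference was -1.15 for Gstm3, -1.59 for Gstm6, -1.89 for Gstm7 and -0.44 for Gstm2 (adjusted p 1.25e-07 to 0.0134), of which Gstm2 was not called without E2 24 hr replicate 3 (-0.40, adjusted p = 0.0797). BPA and HPTE at 24 hr left Gstm1 between 153200 and 171900, within or above the vehicle range, with log2 differences of 0.06 and 0.11. The theta-class gene Gstt1 differed in direction between compounds at 24 hr: it read 1205, 1414 and 1466 with vehicle, 1015 and 766 with E2, 2337, 1633 and 1969 with BPA and 1884, 1862 and 1815 with HPTE. Gstt1 fell by 0.62 with E2 (adjusted p = 0.00127) and rose by 0.53 with BPA (adjusted p = 0.0127) and 0.45 with HPTE (adjusted p = 0.013), and the direct differences from E2 were 1.15 (adjusted p = 5.9e-06) and 1.07 (adjusted p = 1.8e-05). The 2 increases over vehicle were lost without vehicle replicate 1 (BPA 0.44, adjusted p = 0.0722; HPTE 0.36, adjusted p = 0.0662), and the BPA one also without BPA 24 hr replicate 1 (0.40, adjusted p = 0.0761). Gstz1, the zeta-class enzyme of tyrosine breakdown, fell by 0.51 with BPA (adjusted p = 0.00208) and 0.34 with HPTE (adjusted p = 0.0254) at 2 hr and was not called at 24 hr. Its HPTE call was lost without vehicle replicate 2 (-0.22, adjusted p = 0.142), HPTE 2 hr replicate 1 (-0.27, adjusted p = 0.108) or replicate 2 (-0.33, adjusted p = 0.0601). Gstm5 fell by 0.90 with BPA (adjusted p = 5.66e-06), 0.71 with HPTE (adjusted p = 3.95e-05) and 0.47 with E2 (adjusted p = 0.00303) at 2 hr, and by 0.39 with BPA at 24 hr (adjusted p = 0.0205), the last of these not without vehicle replicate 1 (-0.26, adjusted p = 0.101) or BPA 24 hr replicate 2 (-0.35, adjusted p = 0.0655) or 3 (-0.37, adjusted p = 0.0797).

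**Figure D3:**
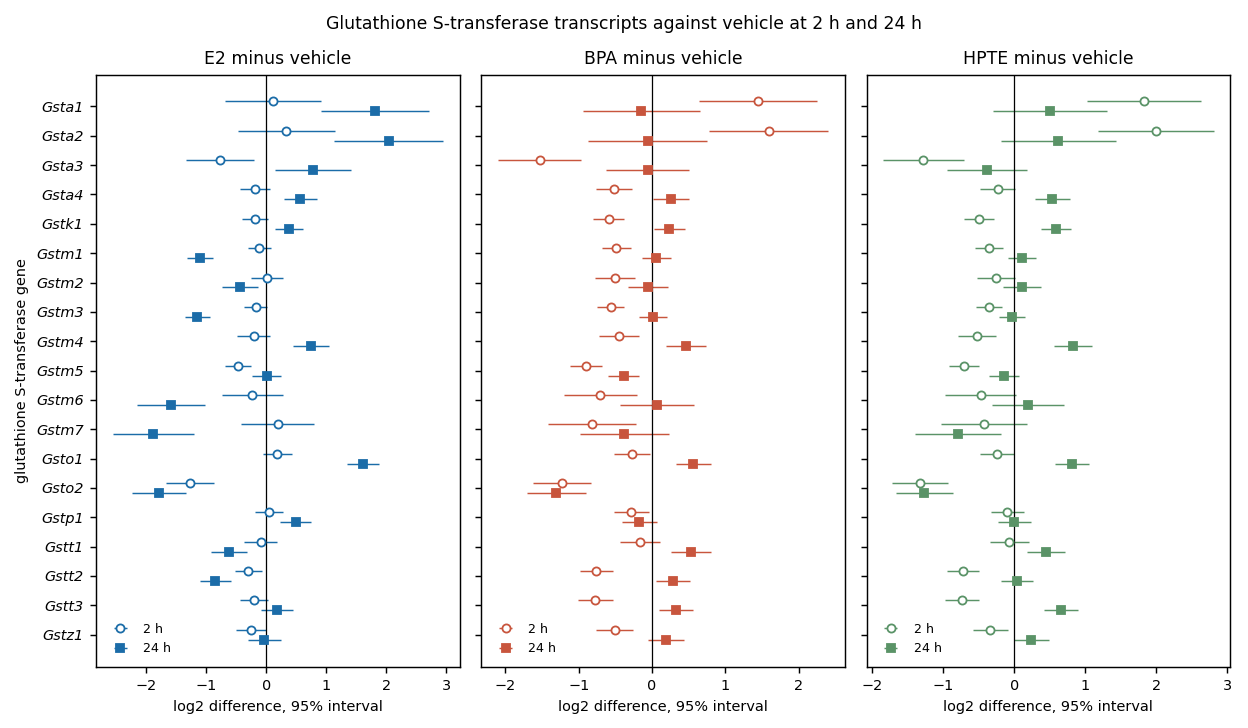
Log2 difference from vehicle with its 95% interval for the 19 glutathione S-transferase genes, at 2 hr (open circles) and 24 hr (filled squares), in a panel each for E2, BPA and HPTE. With BPA and HPTE most genes lie below 0 at 2 hr and near or above 0 at 24 hr. Gsta1 and Gsta2 lie above 0 at 2 hr and lower at 24 hr than at 2 hr with these compounds. With E2 the 24 hr values spread from -1.89 (Gstm7) to 2.04 (Gsta2).

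Among the 28 P450s of families 1 to 3, 2 rose and 10 fell after BPA at 2 hr, 2 rose and 8 fell after HPTE, and 1 rose and 4 fell after E2, which is 42.9%, 35.7% and 17.9% against 49.4%, 48.1% and 28.1% of all probes. Cyp2u1, a widely expressed P450 that hydroxylates long-chain fatty acids, was the one that rose with all 3 compounds. It read 40.9, 41.1 and 33.4 in scaled intensity on the vehicle arrays, 77.4, 69.5 and 75.7 with E2, 69.2, 87.3 and 63.6 with BPA and 86.4, 65.7 and 91.1 with HPTE at 2 hr, with no overlap. Its log2 differences at 2 hr were 0.95 ± 0.16 (E2, adjusted p = 0.000394), 0.92 ± 0.16 (BPA, adjusted p = 0.000241) and 1.07 ± 0.16 (HPTE, adjusted p = 5.86e-05). The E2 increase was 1.01 without the 2 arrays rich in pancreas transcripts, which leaves a single E2 2 hr array. Its call was lost with spike-in scaling (0.88, adjusted p = 0.079). At 24 hr BPA and HPTE gave 0.00 and -0.02.

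Cyp2d22, a member of the drug-metabolizing 2D subfamily, had the largest called decrease with BPA and the second largest with HPTE at 2 hr among genes above background on every array and outside the vehicle range. It read 2323, 2309 and 2223 in scaled intensity with vehicle, 1027, 958 and 850 with E2, 396, 452 and 1230 with BPA and 589, 561 and 600 with HPTE at 2 hr, and 856 and 867 with E2 at 24 hr. All of these treated arrays lay below the vehicle arrays, with BPA replicate 3 nearest to them. The log2 difference was -1.28 ± 0.28 with E2 (adjusted p = 0.00303), -1.92 ± 0.28 with BPA (adjusted p = 5.39e-05) and -1.97 ± 0.28 with HPTE (adjusted p = 3.54e-05) at 2 hr, and -1.41 ± 0.31 with E2 at 24 hr (adjusted p = 0.00103). Without the 2 arrays rich in pancreas transcripts, which leaves a single E2 2 hr array, the E2 2 hr value was -1.15. Without BPA 2 hr replicate 3 the BPA value was -2.43 (adjusted p = 4.63e-10). BPA at 24 hr read 2084, 2414 and 2041 and HPTE 1762, 1976 and 1871, neither of them called. Of 2 further Cyp2d22 probes, 1 fell less at 2 hr (-0.56, -0.71 and -0.76 with E2, BPA and HPTE, all called) and 1 was not called (-0.22, -0.28 and -0.40). Cyp2d9 and Cyp2d10, of the same subfamily and outside the naming rule, fell with BPA (-0.69 and -0.77), HPTE (-0.60 and -0.53) and, at 24 hr, E2 (-1.06 and -1.04), with adjusted p between 4.79e-05 and 0.0208, though a second Cyp2d10 probe was not called.

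Cyp2j6 and Cyp2j13, of the 2J subfamily that makes epoxides of arachidonic acid, fell at 2 hr and rose at 24 hr with BPA and HPTE. Cyp2j6, chosen after its values were seen, read 892, 1105 and 1067 in scaled intensity with vehicle, 485, 571 and 661 with BPA and 614, 608 and 627 with HPTE at 2 hr, and 1575, 1227 and 1388 with BPA and 1443, 1473 and 1552 with HPTE at 24 hr. The 2 hr arrays lay below vehicle and the 24 hr arrays above it. Cyp2j6 fell by 0.84 with BPA (adjusted p = 4.43e-05) and 0.72 with HPTE (adjusted p = 0.000144) and then rose by 0.45 (adjusted p = 0.0222) and 0.55 (adjusted p = 0.00271), and with E2 it was -0.26 at 2 hr (adjusted p = 0.12) and 0.65 at 24 hr (adjusted p = 0.000549). Cyp2j11 read 22.4, 23.1 and 21.4 with vehicle and rose at 24 hr to 48.6 and 34.9 with E2 (0.89 ± 0.26, adjusted p = 0.00754), 40.8, 31.5 and 41.9 with BPA (0.76 ± 0.23, adjusted p = 0.0431) and 46.8, 54.7 and 48.0 with HPTE (1.16 ± 0.23, adjusted p = 0.00161). The Cyp2j11 call was lost for E2 without E2 24 hr replicate 2 (0.65, adjusted p = 0.104) and for BPA without any single vehicle array (0.73 to 0.79, adjusted p 0.0806 to 0.118) or without BPA 24 hr replicate 1 (0.71, adjusted p = 0.142) or 3 (0.69, adjusted p = 0.146). The probes of Cyp2j11 and Cyp2j13 share a run of 18 bases.

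Several P450s of these families were low or variable. Cyp1a1, the classical target of the aryl hydrocarbon receptor, read 7.08 to 37.9 in scaled intensity with vehicle and 9.40 to 29.1 over the 9 arrays at 2 hr, was well above background on 1 of 3 vehicle arrays and was not called in any of the 6 comparisons (adjusted p 0.176 to 0.988). Cyp1a2 did not pass the filter. Cyp1b1, which hydroxylates estradiol at the 4 position, read 160, 278 and 231 with vehicle, 54.4, 20.9 and 53.2 with HPTE at 2 hr and 37.8 and 34.2 with E2 at 24 hr. Cyp1b1 fell by 2.47 ± 0.64 with HPTE at 2 hr (adjusted p = 0.00489) and by 2.59 ± 0.72 with E2 at 24 hr (adjusted p = 0.00509). With BPA the Cyp1b1 values at 2 hr spread from 29.0 to 234 (-1.38 ± 0.64, adjusted p = 0.088). A second Cyp1b1 probe was called lower in all 6 comparisons (log2 -2.29 to -3.45), so the 2 probes disagree for E2 and BPA at 2 hr and for BPA and HPTE at 24 hr. Cyp2e1, the ethanol-oxidizing P450, read 901, 2537 and 1027 with vehicle and fell with E2 at 24 hr to 268 and 401 (-2.02 ± 0.76, adjusted p = 0.0294), a call lost without either E2 24 hr array (-1.73 and -2.31, adjusted p = 0.152 and 0.0604) and without vehicle replicate 2 (-1.55, adjusted p = 0.111). A list of 10 adipocyte markers, all above background on the vehicle arrays, summed to 119100, 189900 and 87250 on vehicle replicates 1, 2 and 3 and to 39840 and 45020 with E2 at 24 hr. There 6 of the 10 were called lower and 0 higher (median -1.67), beside 63.8% of all probes called and 37.6% lower (median -0.15). The lowest sum of all arrays, 24260 on HPTE 24 hr replicate 3, went with the lowest Cyp2e1 value, 143, and the highest sum with the highest, 2537. The order was the other way for vehicle replicates 1 and 3, with sums of 119100 and 87250 and values of 901 and 1027. The part of adipocyte RNA in the Cyp2e1 values was not tested.

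Cyp2c44, an epoxygenase of arachidonic acid now named Cyp2c23, had the largest called decrease of the 81 genes with E2 at 24 hr. It read 210, 203 and 165 in scaled intensity with vehicle, 91.3, 82.8 and 117 with E2, 94.7, 55.4 and 101 with BPA and 58.2, 49.8 and 87.6 with HPTE at 2 hr. At 24 hr it read 16.6 and 18.5 with E2, 140, 121 and 92 with BPA and 103, 51.5 and 34.6 with HPTE. No treated array reached the vehicle range. The log2 difference at 24 hr was -3.45 ± 0.38 with E2 (adjusted p = 1.36e-06), -1.75 ± 0.34 with HPTE (adjusted p = 0.00116) and -0.72 ± 0.34 with BPA (adjusted p = 0.177). At 2 hr it was -1.0, -1.25 and -1.60 with E2, BPA and HPTE (adjusted p = 0.0375, 0.00641 and 0.00107), and the E2 call was lost without vehicle replicate 1 (-0.93, adjusted p = 0.104) or E2 2 hr replicate 2 (-0.89, adjusted p = 0.113). Cyp3a25, a 3A P450, read 15.0, 20.4 and 9.64 with vehicle and 137 and 54.0 with E2 at 24 hr (2.58 ± 0.77, adjusted p = 0.00813). Without E2 24 hr replicate 2 the difference was 1.91. Cyp3a25 was well above background on every array in the E2 groups alone and passed the filter through them. Not every vehicle array read it above background, so the size of its difference is uncertain.

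The 10 family 4 P450s leaned one way with BPA and HPTE at 24 hr and the other with E2. Of the 10, 3 were higher and 0 lower with BPA, 5 higher and 0 lower with HPTE, and 1 higher and 5 lower with E2, that is 30%, 50% and 60% against 13.1%, 34.0% and 63.8% of all probes. The higher calls with BPA and HPTE depended on the scaling. Over all 81 genes, spike-in scaling left 0 and 1 higher calls at 24 hr, and no scaling left 1 and 7. Cyp4x1 (mm7 chr4:114482828-114482887, minus strand), which epoxidizes anandamide, read 32.5, 32.0 and 41.2 in scaled intensity with vehicle, 107, 114 and 72.6 with BPA and 220, 205 and 186 with HPTE at 24 hr. The 3 groups did not overlap. Cyp4x1 rose by 1.46 ± 0.29 with BPA (adjusted p = 0.00412) and by 2.53 ± 0.29 with HPTE (adjusted p = 1.87e-05), while with E2 it read 46.3 and 63.1 (0.63 ± 0.32, adjusted p = 0.104). The BPA call was lost with spike-in scaling (1.33, adjusted p = 0.0823). At 2 hr Cyp4x1 ran from 19.6 to 67.7 and was not called with any compound.

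Cyp4b1, which activates furans and aromatic amines, read 3324, 2788 and 3353 in scaled intensity with vehicle and fell to 963 and 696 with E2 at 24 hr, a log2 difference of -1.94 ± 0.16 (adjusted p = 6.54e-08). At 24 hr it read 4094, 3740 and 3473 with BPA and 2678, 2251 and 2614 with HPTE, on either side of vehicle and not called against it (0.26 and -0.33, adjusted p = 0.243 and 0.083). At 2 hr Cyp4b1 fell by 0.48 with BPA (adjusted p = 0.00957), but not without BPA 2 hr replicate 2 (-0.36, adjusted p = 0.0574), and by 0.46 with HPTE (adjusted p = 0.0123). Cyp4a10, a fatty acid hydroxylase of the peroxisome proliferator response, rose at 24 hr by 0.56 with BPA (adjusted p = 0.0382) and 0.59 with HPTE (adjusted p = 0.0139), and its neighbour in function Cyp4a14 by 0.77 with HPTE (adjusted p = 0.0371). Without vehicle replicate 1 the Cyp4a10 values were 0.39 and 0.41 (adjusted p = 0.198 and 0.0791), without any single BPA 24 hr array its BPA call was lost (adjusted p 0.0663 to 0.126), and the Cyp4a14 call was lost without vehicle replicate 3 (0.58, adjusted p = 0.14), vehicle replicate 1 or any single HPTE 24 hr array (adjusted p 0.0519 to 0.0974). Cyp4f15, which passed the filter only through HPTE at 24 hr, was well above background on 2 of 3 vehicle arrays. It was so on none with HPTE at 2 hr or E2 at 24 hr, and vehicle was at least 1.52-fold and at least 1.22-fold higher (adjusted p = 0.0168 and 0.0172). Under normexp background correction with quantile scaling the log2 values were -0.15 and -0.18 (adjusted p = 0.192 and 0.145). Both Cyp4f15 calls were lost without vehicle replicate 2 (adjusted p = 0.0631 and 0.0549), the HPTE one without HPTE 2 hr replicate 3 (adjusted p = 0.0597) and the E2 one without E2 24 hr replicate 2 (adjusted p = 0.097).

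Of the 10 P450s of sterol, bile acid, vitamin and steroid metabolism, 0 were called higher and 1 lower with E2, 0 and 2 with BPA and 0 and 2 with HPTE at 2 hr, which is 10%, 20% and 20% against 28.1%, 49.4% and 48.1% of all probes. At 24 hr the counts were 0 and 2, 1 and 0, and 2 and 1, that is 20%, 10% and 30% against 63.8%, 13.1% and 34.0%, so that the BPA and HPTE shares at 24 hr were near the background. Cyp27a1, the mitochondrial sterol 27-hydroxylase, read 1576, 1804 and 2195 in scaled intensity with vehicle, 1026 and 667 with E2 and 2911, 2611 and 2724 with BPA at 24 hr, and the 3 groups did not overlap. It fell by 1.16 ± 0.16 with E2 (adjusted p = 1.81e-05), rose by 0.58 ± 0.15 with BPA (adjusted p = 0.0173) and was 0.24 with HPTE (adjusted p = 0.224). The BPA increase was lost without vehicle replicate 1 (0.46, adjusted p = 0.0961) or 2 (0.56, adjusted p = 0.0501) and without BPA 24 hr replicate 1 (0.53, adjusted p = 0.0775) or 3 (0.58, adjusted p = 0.0541). Cyp7b1, the oxysterol 7-hydroxylase, rose by 0.35 ± 0.09 with HPTE at 24 hr (adjusted p = 0.00841), with values of 4333, 4511 and 4463 above the vehicle values of 3850, 3105 and 3515. This Cyp7b1 call was lost with slide as a block (0.30, adjusted p = 0.0751), with no scaling (0.24, adjusted p = 0.297) and with spike-in scaling (0.05, adjusted p = 0.912). Cyp17a1, the 17-hydroxylase and lyase of androgen synthesis, Cyp26b1, a retinoic acid hydroxylase, and Cyp27b1 and Cyp24a1, which make and break down active vitamin D, were not called in any of the 6 comparisons. Cyp26b1 varied within groups, from 389 to 2030 with BPA at 2 hr and from 1432 to 2721 with vehicle. Cyp19a1, aromatase, did not pass the filter. Cyp20a1, a P450 of unassigned substrate chosen after its values were seen, fell with HPTE at 2 hr (515, 293 and 1095, -1.11 ± 0.33, adjusted p = 0.011) and rose with E2 at 24 hr (2524 and 2259, 1.01 ± 0.37, adjusted p = 0.025), from 1167, 911 and 1567 with vehicle. The HPTE decrease of Cyp20a1 did not keep its sign on every slide that held both groups.

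**Figure D4:**
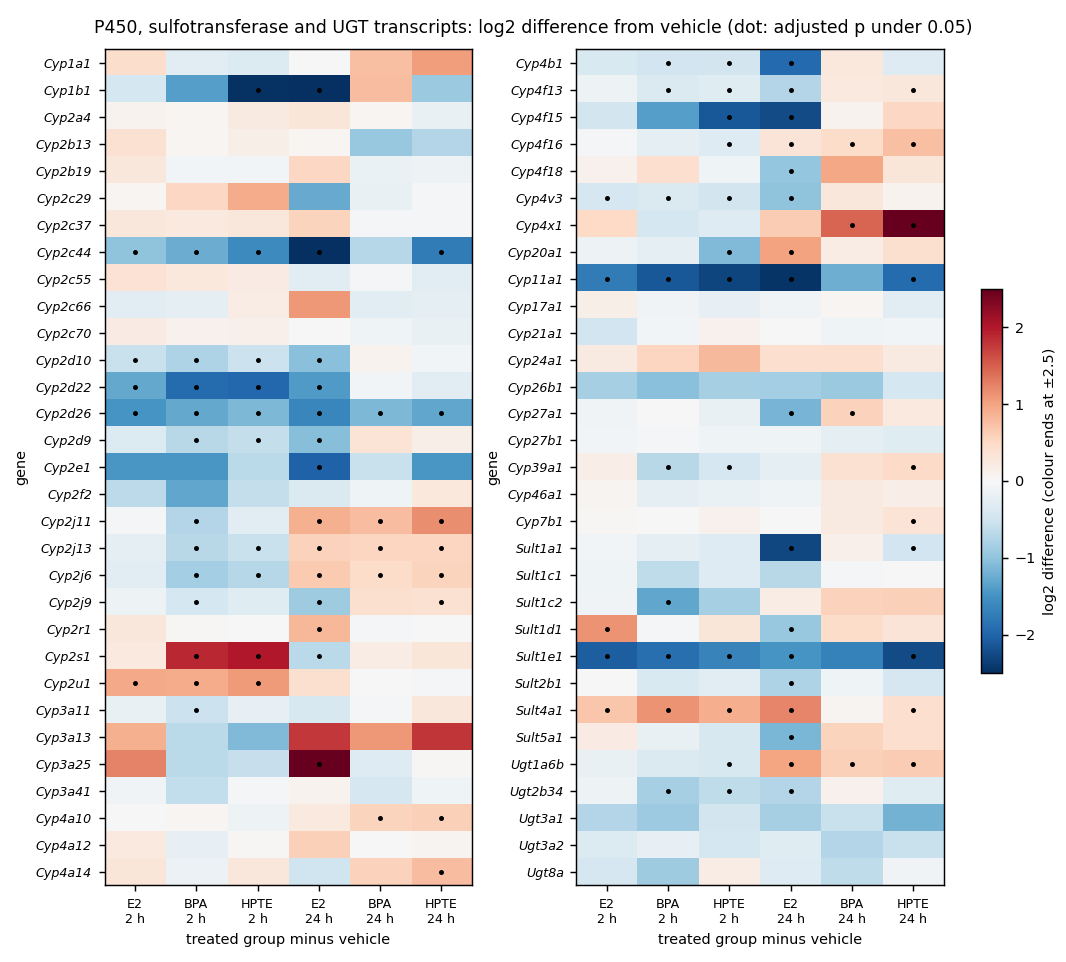
Log2 difference from vehicle in the 6 treated groups for the 62 genes that are not glutathione S-transferases, ordered by role; colours end at -2.5 and 2.5, and a dot marks an adjusted p under 0.05. Cyp2s1 stands out at 2 hr with BPA and HPTE (1.88 and 2.01), Cyp4x1 at 24 hr with the same compounds (1.46 and 2.53), and Cyp2c44 (-3.45) and Sult1a1 (-2.27) with E2 at 24 hr.

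Of the 8 sulfotransferases, Sult1d1 moved in opposite directions at the 2 times of E2, and Sult1e1 and Sult4a1 moved the same way with all 3 compounds at 2 hr. Against E2, 2 of the 8 were called with BPA and 1 with HPTE at 2 hr, 25% and 12.5% against 19.0% and 16.6% of all probes, and 5 and 4 at 24 hr, 62.5% and 50% against 57.8% and 48.8%. Sult1d1, which sulfates catecholamines and eicosanoids, read 1967, 2205 and 1960 in scaled intensity with vehicle, 6361, 3691 and 3794 with E2 at 2 hr and 1082 and 1024 with E2 at 24 hr. The 2 hr arrays lay above vehicle and the 24 hr arrays below it. Sult1d1 rose by 1.13 ± 0.22 with E2 at 2 hr (adjusted p = 0.00128) and fell by 0.96 ± 0.25 at 24 hr (adjusted p = 0.00316). Without the 2 arrays rich in pancreas transcripts, which leaves a single E2 2 hr array, the 2 hr increase was 1.64. With BPA and HPTE at 2 hr the Sult1d1 differences were -0.03 and 0.30 (adjusted p = 0.917 and 0.279), and both groups were called lower than E2 (-1.16 and -0.83, adjusted p = 0.00277 and 0.0188).

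Sult1a1, the phenol sulfotransferase that conjugates simple phenols such as BPA, read 2018, 2676 and 2130 in scaled intensity with vehicle and 510 and 431 with E2 at 24 hr, a log2 difference of -2.27 ± 0.20 (adjusted p = 1.54e-07). At 24 hr it read 2916, 2232 and 2307 with BPA (0.13, adjusted p = 0.693) and 1810, 1630 and 1422 with HPTE (-0.49 ± 0.18, adjusted p = 0.0466). The HPTE call was lost without any single vehicle array (-0.36 to -0.57, adjusted p 0.0528 to 0.182) or without HPTE 24 hr replicate 2 or 3 (adjusted p = 0.0897 and 0.154). Sult4a1 (mm7 chr15:84158437-84158496, minus strand), a sulfotransferase known mainly from brain and without a settled substrate, was called higher in every group but BPA at 24 hr. It read 143, 142 and 98.4 with vehicle, 186, 174 and 257 with E2, 266, 288 and 264 with BPA and 261, 217 and 232 with HPTE at 2 hr, and 283 and 307 with E2 at 24 hr. None of these treated arrays overlapped vehicle. The Sult4a1 log2 differences were 0.69, 1.12 and 0.91 at 2 hr (adjusted p = 0.00342, 3.19e-05 and 0.000163) and 1.23, 0.07 and 0.43 at 24 hr (adjusted p = 1.54e-05, 0.812 and 0.0421) for E2, BPA and HPTE. A second Sult4a1 probe was called with E2 at 24 hr (2.09, adjusted p = 0.00427) but not with E2, BPA or HPTE at 2 hr (0.38, 0.90 and 0.58, adjusted p = 0.631, 0.151 and 0.373) or with HPTE at 24 hr (0.10, adjusted p = 0.9). The HPTE 24 hr call was lost without vehicle replicate 3 (0.25, adjusted p = 0.197) and without any single HPTE 24 hr array (0.38 to 0.49, adjusted p 0.0503 to 0.123). Without the arrays rich in pancreas transcripts, which leaves a single E2 2 hr array, the E2 2 hr value was 0.57.

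Sult1c2 fell with BPA at 2 hr, from 1138, 1785 and 1281 to 342, 856 and 590 in scaled intensity (-1.31 ± 0.39, adjusted p = 0.0125), and the call was lost without BPA 2 hr replicate 1 (-0.95, adjusted p = 0.0722) or vehicle replicate 2 (-1.12, adjusted p = 0.0547). Sult2b1, the cholesterol sulfotransferase, fell by 0.76 ± 0.19 with E2 at 24 hr (adjusted p = 0.00244), but the value was -0.20 under quantile scaling (adjusted p = 0.417) and -0.12 with normexp background correction as well (adjusted p = 0.274). In all, of 8 sulfotransferases, E2 at 24 hr called 1 higher and 5 lower, 75% against 63.8% of all probes, HPTE at 24 hr 1 higher and 2 lower, 37.5% against 34.0%, and BPA at 24 hr 0 of 8, against 13.1% (limma), with 2 of the 8, Sult1e1 and Sult5a1, under 0.05 unadjusted.

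Of the UDP-glucuronosyltransferases, 9 of 14 did not pass the filter, all of them from the 1A, 2A and 2B families. Ugt1a6b (mm7 chr1:88122519-88122578, plus strand), a phenol-conjugating form, read 9505, 8874 and 9639 in scaled intensity with vehicle and 20290 and 17070 with E2, 15160, 10810 and 17000 with BPA and 13640, 14940 and 14660 with HPTE at 24 hr. All 8 treated arrays at 24 hr lay above vehicle, and the log2 differences were 1.0 ± 0.18 (adjusted p = 0.000162), 0.59 ± 0.16 (adjusted p = 0.0232) and 0.63 ± 0.16 (adjusted p = 0.00718). The BPA call was lost without BPA 24 hr replicate 3 (0.46, adjusted p = 0.121) or 1 (0.54, adjusted p = 0.0993) and without vehicle replicate 1 or 2 (adjusted p = 0.0676 and 0.0702). At 2 hr Ugt1a6b fell with HPTE (-0.40, adjusted p = 0.0476), but a second probe gave 0.27 there and the mean over probes -0.07 (adjusted p = 0.801), and the call was lost without HPTE 2 hr replicate 3 (-0.37, adjusted p = 0.12). Transcripts of the Ugt1a locus share their last exons, so reads of its probes may not be particular to 1 isoform. Ugt2b34, outside the naming rule, fell with BPA (-0.83, adjusted p = 0.000608) and HPTE (-0.64, adjusted p = 0.00414) at 2 hr and with E2 at 24 hr (-0.72, adjusted p = 0.00246). Ugt8a, which makes galactosylceramide, was not called in any of the 6 comparisons.

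Gsto2, Cyp2d26, Cyp11a1 and Sult1e1 were lower than vehicle in most treated groups and highest on vehicle replicate 1, the array richest in sperm cell transcripts. They were grouped by these traits, so the match with the sperm cell list is not a separate result. Cyp1b1, lower on a second probe in all 6 comparisons, was not among them, and its main probe read lowest on vehicle replicate 1. Gsto2, the second omega-class transferase, read 1405, 755 and 706 in scaled intensity on vehicle replicates 1, 2 and 3 and 241 to 420 on all 17 treated arrays. It was called lower in all 6 comparisons, by 1.27, 1.23 and 1.33 at 2 hr and 1.79, 1.31 and 1.27 at 24 hr in log2 for E2, BPA and HPTE (adjusted p 2.89e-06 to 0.000487). Without vehicle replicate 1 the Gsto2 differences were -0.91 to -1.47 and all 6 remained called (adjusted p 1.8e-07 to 0.000208).

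Cyp2d26 read 327, 153 and 112 with vehicle and 51.0 to 116 on the treated arrays and was called lower in all 6 comparisons (-1.11 to -1.63). Without vehicle replicate 1, 3 of these 6 calls were lost, those of HPTE at 2 hr (-0.68, adjusted p = 0.086), BPA at 24 hr (-0.68, adjusted p = 0.226) and HPTE at 24 hr (-0.86, adjusted p = 0.0518). Cyp11a1, the side-chain cleavage enzyme that starts steroid synthesis, read 70.9, 50.2 and 39.4 with vehicle and 7.31 to 36.7 on the treated arrays, all below vehicle. Cyp11a1 was called lower with E2, BPA and HPTE at 2 hr (-1.75, -2.12 and -2.29, adjusted p = 0.00969, 0.00133 and 0.000704) and with HPTE at 24 hr (-1.92, adjusted p = 0.00492). Since no E2 24 hr array was well above background, vehicle was at least 3.76-fold higher there (adjusted p = 0.000633). Only vehicle and BPA at 24 hr had Cyp11a1 well above background on every array, with 1 of 3 for E2 at 2 hr and 2 of 3 for HPTE at 24 hr. The sizes of the other differences are thus uncertain. Cyp11a1 passed the filter through vehicle and BPA at 24 hr alone, so its calls below vehicle are not independent of the filter. The E2 2 hr call for Cyp11a1 was lost without E2 2 hr replicate 2 (-1.32, adjusted p = 0.053). Without the arrays rich in pancreas transcripts, which leaves a single E2 2 hr array, the value was -0.50. Without vehicle replicate 1 all 5 Cyp11a1 calls remained (adjusted p 0.00346 to 0.0463).

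Sult1e1, the estrogen sulfotransferase, read 115, 51.9 and 51.6 with vehicle and 5.74 to 32.1 in scaled intensity on the treated arrays, none of which reached vehicle. It was called lower with E2, BPA and HPTE at 2 hr (-2.05, -1.88 and -1.67, adjusted p = 0.0121, 0.0111 and 0.0216), with E2 at 24 hr (-1.48, adjusted p = 0.0483) and with HPTE at 24 hr (-2.24, adjusted p = 0.00637), and BPA at 24 hr missed the threshold (-1.70, adjusted p = 0.0575). Sult1e1 was well above background on 16 of 20 arrays, and on every array only with vehicle, HPTE at 2 hr and E2 at 24 hr. The sizes of its differences in the other groups are thus uncertain. Without vehicle replicate 1 the Sult1e1 values were -1.10 to -1.86 and HPTE at 24 hr alone was called (adjusted p = 0.0372 there and 0.0584 to 0.249 elsewhere). The sperm cell sums of 244500 on vehicle replicate 1 and 82910 and 73710 on replicates 2 and 3 stand beside these values, and their part in them was not tested. Of the markers for steroidogenic cells, 11 genes summed to 9642 to 13890 on all arrays, with Lhcgr never above background. Of the 7 tested, 3 were lower in each 2 hr group, and 1 was higher with HPTE. At 24 hr 5 were lower and 1 higher with E2, 2 and 0 with BPA and 3 and 0 with HPTE. Of all probes, 28.1%, 49.4% and 48.1% were called at 2 hr and 63.8%, 13.1% and 34.0% at 24 hr. The part of such cells in the values above was not tested.

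**Figure D5:**
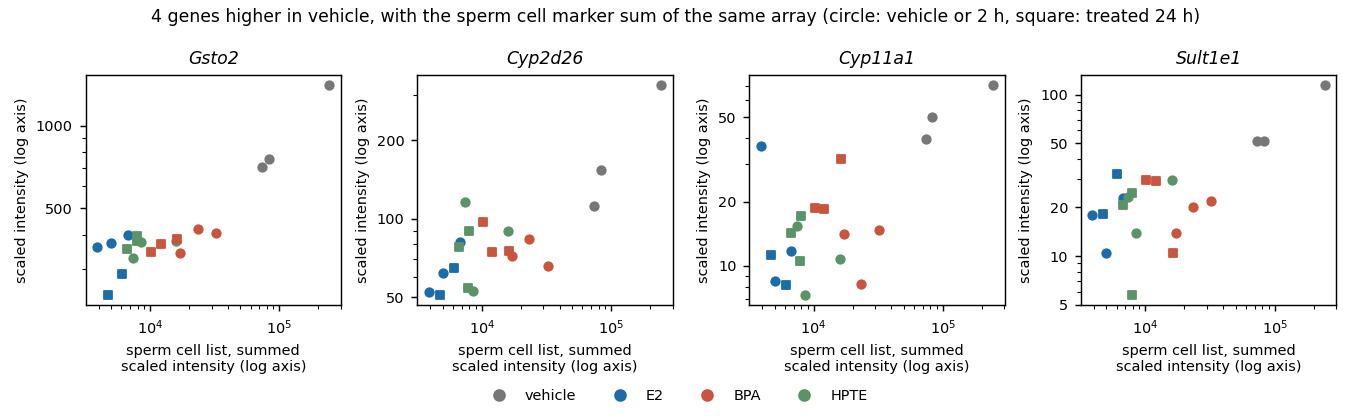
Scaled intensity of Gsto2, Cyp2d26, Cyp11a1 and Sult1e1 (vertical, log axis) against the summed scaled intensity of the sperm cell list (horizontal, log axis), 1 point per array, coloured by group. The 3 vehicle arrays lie to the right at 73710 to 244500, and the vehicle array with the highest sum also has the highest value of each of the 4 genes, a trait by which they were grouped.

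BPA and HPTE, 2 bisphenolic compounds that differ in the carbon bridge between the phenol rings (a trichloroethane in HPTE and a propane in BPA), were compared over the 81 genes at each time. At 2 hr 0 of 81 genes were called by limma, against 0.437% of all probes (0.24% higher and 0.197% lower with HPTE), with 3 under 0.05 unadjusted and 0 or 1 when an array was left out. At 24 hr 1 gene, Cyp4b1, was called, against 4.08% of all probes (2.99% higher and 1.09% lower), with 16 under 0.05 unadjusted. Cyp4b1 was lower with HPTE by 0.58 ± 0.14 (adjusted p = 0.0318), and the arrays of the 2 groups did not overlap. This Cyp4b1 call was lost on leaving out any of the 6 arrays (-0.51 to -0.64, adjusted p 0.0562 to 0.127). It was also lost with slide as a block (-0.66, adjusted p = 0.0892), no scaling (-0.59, adjusted p = 0.246) and spike-in scaling (-0.76, adjusted p = 0.654), though the value did not shrink in these fits. Within the slides that held both groups the difference was -0.65 and -0.63. Cyp4x1 was higher with HPTE by 1.08 at 24 hr and just missed the threshold (adjusted p = 0.0501, range over the alternatives 0.0208 to 0.151). A p above the threshold does not show that the compounds act alike: the 95% interval of the difference had a median half-width of 0.506 in log2, and it lay within 1 log2 unit on either side of 0 for 51 of the 81 genes at each time and not for the other 30.

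Against E2, at doses that differ, BPA at 2 hr had 3 genes higher and 16 lower and HPTE 3 higher and 9 lower, which is 23.5% and 14.8% against 19.0% and 16.6% of all probes. Of all probes, 7.92% were higher and 11.1% lower for BPA and 8.45% higher and 8.18% lower for HPTE. In both comparisons the 3 higher genes were Cyp2s1, Gsta1 and Gsta2. With no scaling the splits were 4 and 2 for BPA and 6 and 1 for HPTE, and with spike-in scaling 1 and 0 and 3 and 0. The HPTE count of 12 fell to 5 without E2 2 hr replicate 1. At 24 hr BPA had 28 higher and 9 lower than E2 and HPTE 29 higher and 8 lower, 45.7% each against 57.8% (33.2% higher and 24.6% lower) and 48.8% (27.3% higher and 21.6% lower) of all probes. Family 4 P450s made 7 and 8 of these higher calls, with none lower. Both counts include Cyp4f15 (adjusted p = 0.0156 and 0.00709, limma), which passed the filter only through HPTE at 24 hr. It was well above background on no E2 24 hr array, so its calls are not independent of the filter. Among all 81 genes the largest differences from E2 at 24 hr in genes above background on every array were Cyp1b1 (3.36, adjusted p = 0.000899) and Cyp2c44 (2.73, adjusted p = 1.88e-05) for BPA and Cyp4x1 (1.91, adjusted p = 0.00018) for HPTE. The second Cyp1b1 probe gave 0.05 for BPA over E2 at 24 hr (adjusted p = 0.947), so the Cyp1b1 difference rests on 1 of its 2 probes.

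Between 2 and 24 hr of the same compound, a comparison without vehicle, 37 genes rose and 5 fell with BPA and 36 rose and 5 fell with HPTE, 51.9% and 50.6% against 48.4% (28.2% higher and 20.2% lower) and 54.1% (29.5% higher and 24.6% lower) of all probes. The median log2 difference of the 81 genes was 0.52 with BPA and 0.37 with HPTE, against 0.06 and 0.05 over all probes. With E2, 18 rose and 27 fell, 55.6% against 56.0% (25.9% higher and 30.1% lower). With spike-in scaling the splits were 11 and 5 for BPA and 9 and 9 for HPTE, and with no scaling 19 and 12 for E2 and 18 and 6 for HPTE. Of the 19 glutathione S-transferases, 14 rose and 2 fell from 2 to 24 hr with BPA and likewise with HPTE, 84.2% against 48.4% and 54.1%. Gsta1 and Gsta2 were the 2 that fell, by 1.59 and 1.65 with BPA (adjusted p = 0.0026 and 0.00217) and by 1.33 and 1.38 with HPTE (adjusted p = 0.00743 and 0.0064). Cyp2s1 fell by 1.69 with BPA (adjusted p = 1.82e-06) and 1.71 with HPTE (adjusted p = 9.7e-07), Cyp2u1 by 0.92 (adjusted p = 0.00022) and 1.09 (adjusted p = 3.7e-05), and Sult4a1 by 1.04 (adjusted p = 4.92e-05) and 0.48 (adjusted p = 0.0145). Cyp2d22 rose by 1.85 with BPA (adjusted p = 6.6e-05) and 1.68 with HPTE (adjusted p = 0.000116). No slide held HPTE arrays of both times.

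Other genes of the same pathways were looked at from lists. Of 18 tested receptors and sensors, 10 were lower and 1 higher with E2 at 24 hr, near the 63.8% of all probes called there (37.6% lower and 26.3% higher). At 2 hr 4, 5 and 5 were higher and 3, 4 and 4 lower with E2, BPA and HPTE, where 28.1%, 49.4% and 48.1% of all probes were called. Ahr, the receptor for dioxins and other aromatic ligands, read 2651, 2842 and 2818 in scaled intensity with vehicle and fell at 2 hr to 1353, 1623 and 1529 with E2, 828, 969 and 1455 with BPA and 869, 956 and 952 with HPTE. These log2 differences were -0.89, -1.40 and -1.58 (adjusted p = 0.000631, 6.04e-06 and 1.57e-06), and no array overlapped vehicle. Ahrr, the repressor of this receptor, fell at 2 hr with all 3 (-0.54, -0.96 and -1.03, adjusted p 5.64e-07 to 0.000462), and at 24 hr it fell with E2 (-0.83, adjusted p = 4.99e-06) and rose with BPA (0.66, adjusted p = 0.000432) and HPTE (0.73, adjusted p = 4.22e-05). Tiparp, an ADP-ribosyltransferase and a known target of Ahr, rose at 2 hr to between 19710 and 29640 from 3787 to 4172 with vehicle, except that BPA replicate 3 read 5573 (2.64, 1.79 and 2.73 for E2, BPA and HPTE, adjusted p = 9.65e-05, 0.00113 and 2.82e-05). Arnt, the partner of Ahr, was called at 24 hr with E2 alone (-0.60, adjusted p = 0.00484), and Nfe2l2, the factor of the antioxidant response, was not called in any of the 6.

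Nqo1, the quinone reductase, fell at 2 hr with BPA (-0.72, adjusted p = 0.001) and HPTE (-0.49, adjusted p = 0.0128) and rose at 24 hr with E2 (1.32, adjusted p = 6.09e-06) and HPTE (0.98, adjusted p = 0.000182), from 811, 727 and 884 with vehicle to 1930 and 2082 and to 1555, 1786 and 1454. It belongs to 27 tested non-P450 enzymes of functionalization, of which 2 were higher and 15 lower with BPA and likewise with HPTE at 2 hr, where 49.4% and 48.1% of all probes were called (30.2% and 28.2% lower). Electron supply and cofactor genes moved up with E2 at 24 hr, where 12 of 15 were higher and 0 lower, 80% against 63.8% of all probes. Among them Por, the P450 reductase, rose by 0.32 with E2 (adjusted p = 0.00769) and 0.36 with HPTE (adjusted p = 0.0048) at 24 hr, but the E2 value was -0.0104 after normexp background correction with quantile scaling and -0.0655 after quantile scaling, and the HPTE value was 0.15 after quantile scaling (adjusted p = 0.277). Gclc, the rate-limiting enzyme of glutathione synthesis, rose with E2 at 2 hr (0.45, adjusted p = 0.00627) and 24 hr (0.32, adjusted p = 0.0327) and fell with HPTE at 24 hr (-0.31, adjusted p = 0.0406). Both 24 hr calls of Gclc depended on single arrays: that of E2 was lost without E2 24 hr replicate 3 (0.17, adjusted p = 0.356) or vehicle replicate 3 (0.24, adjusted p = 0.123), and that of HPTE without HPTE 24 hr replicate 1 (-0.21, adjusted p = 0.191) or 3 (-0.35, adjusted p = 0.0519) or vehicle replicate 1 (-0.25, adjusted p = 0.152) or 2 (-0.29, adjusted p = 0.106). With no scaling the E2 2 hr value was 0.22 (adjusted p = 0.198). Papss2, which makes the sulfate donor, rose with E2 at 24 hr (1.05, adjusted p = 0.000774), and Ugdh, which makes the glucuronic acid donor, fell with HPTE at 2 hr (-0.32, adjusted p = 0.0129).

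Of 11 tested genes of estrogen interconversion, 5 were higher and 3 lower with E2 at 24 hr, near the 63.8% of all probes called there. Sts, the steroid sulfatase that reverses Sult1e1, read 6136, 5802 and 6662 in scaled intensity with vehicle and 819 and 608 with E2 at 24 hr (-3.13 ± 0.25, adjusted p = 5.37e-08), against -0.29 with BPA (adjusted p = 0.428) and -0.64 with HPTE (adjusted p = 0.0348), a call lost without any single vehicle array (adjusted p 0.0575 to 0.0887) or without HPTE 24 hr replicate 1 or 2 (adjusted p = 0.0522 and 0.13). Hsd17b2, which oxidizes estradiol to estrone, read 15.2, 9.80 and 4.30 with vehicle, where 1 of 3 arrays was well above background, and 89.7 and 70.5 with E2 at 24 hr (adjusted p = 6.5e-05), above all other arrays. Abcg2, an export pump for sulfate conjugates, differed by 0.31 with BPA at 24 hr (adjusted p = 0.0445), a call lost without any single vehicle array (0.27 to 0.34, adjusted p 0.0534 to 0.168), without BPA 24 hr replicate 1 (0.26, adjusted p = 0.176) or 3 (0.32, adjusted p = 0.107), and with no scaling (0.20, adjusted p = 0.487) or spike-in scaling (0.19, adjusted p = 0.898). Of 14 tested exporters E2 at 24 hr called 1 higher and 6 lower, a smaller share than the 63.8% of all probes.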

How the data were processed

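RNA of 20 single uteri was measured on Agilent 4x44K arrays in 1 colour. Per the labels and file headers, the authors scanned each array and extracted it with Agilent Feature Extraction 9.5, and the deposited files give a processed signal per spot, a background-corrected intensity on a linear scale, with flags of other kinds (well above background, outlying, saturated) and probe positions on mm7. The deposited value table equals these intensities on 20 of 20 arrays (relative tolerance 1e-06). Of 45018 spots per array, 43379 were not controls, for 41174 probes. Outlying spots were left out, spots of a probe were averaged on the log2 scale, and each array was centred on its 75th percentile (1319.8 to 2046.4).

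Probes that all arrays of 1 or more groups read above background were kept, 2 more were left out as missing on more than 2 arrays, and 32460 were tested with limma 3.58.1 in R 4.3.3 (means model of 7 groups, eBayes, 13 residual and 1.902 prior degrees of freedom, two-sided, Benjamini-Hochberg adjustment within a comparison). Tables were made in Python 3.11.15 with pandas 2.3.3 and numpy 2.4.6 and figures in matplotlib 3.10.9. Named were, in each comparison with vehicle, up to 5 called increases and 5 called decreases with no overlap of arrays, ranked by log2 difference, every gene called between HPTE and BPA, and a list of pathway genes whatever their values. The genes and lists were chosen with earlier results of these data known. In the labels, time and treatment stand under each other's tags, and each was read by its value. P-values measure the spread between single uteri, and the number of arrays (2 or 3 a group) limits the precision. Alternatives were another background correction, other scalings and filters, slide, replicate and array weights in the fit, other variance and call rules, the mean over probes, and leaving out each array. The fit was tested on simulated data. Of the 81 genes, 76 had a current RefSeq symbol. Promoter letters come from RefSeq. One gene fixed for naming is not reported here.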

Additional observations from a re-analysis of the deposited data

Results flagged for a closer look

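Among the 81 genes, 21 differences between groups stood out because a gene was called in opposite directions at the 2 times of a compound, or in opposite directions with 2 compounds, or differed between BPA and HPTE, with the difference itself past the threshold of the limma fit. This count was not made over all probes, of which 13.1% to 63.8% were called against vehicle in a treated group. The number 21 is thus not a result about these genes. Groups had 2 or 3 arrays, too few to look for single far-off samples.

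Between 24 and 2 hr of E2, the difference was 1.55 in log2 for Gsta3 (lower than vehicle at 2 hr, higher at 24 hr) and -2.09 for Sult1d1 (higher, then lower). Between 24 and 2 hr of BPA, 4 genes that were lower than vehicle at 2 hr were higher at 24 hr, with differences of 1.5 for Cyp2j11, 1.23 for Cyp2j13, 1.29 for Cyp2j6 and 0.91 for Gstm4. For Cyp2j11, with 1 of 3 BPA 2 hr arrays well above background, the 2 hr decrease (-0.74) was -0.40 without BPA 2 hr replicate 1 (adjusted p = 0.0802), -0.40 under quantile scaling (adjusted p = 0.288) and -0.07 with normexp as well (adjusted p = 0.5), and its 24 hr increase was lost without BPA 24 hr replicate 1 (0.71, adjusted p = 0.142) or 3 (0.69, adjusted p = 0.146) or any single vehicle array. The Gstm4 24 hr increase was lost without BPA 24 hr replicate 1 (0.35, adjusted p = 0.142) or vehicle replicate 1 (0.33, adjusted p = 0.147). With HPTE, 9 genes followed this order: 1.08 for Cyp2j13, 1.27 for Cyp2j6, 0.89 for Cyp39a1, 0.59 for Cyp4f13, 1.07 for Cyp4f16, 1.07 for Gstk1, 1.35 for Gstm4, 1.40 for Gstt3 and 1.03 for Ugt1a6b. The Ugt1a6b decrease at 2 hr was not called without any single HPTE 2 hr or vehicle array (adjusted p 0.0665 to 0.12). A second Cyp39a1 probe was not called with HPTE at 24 hr (0.33, adjusted p = 0.0786). Time was compared through vehicle arrays that carry the 24 hr label, so the directions at 2 hr include any difference between 2 and 24 hr after vehicle alone, which was not tested.

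At 24 hr, Cyp27a1 and Gstt1 were lower than vehicle with E2 and higher with BPA, and the BPA values exceeded the E2 values by 1.73 and 1.15. Cyp2j9, Cyp4f13 and Gstt1 were lower with E2 and higher with HPTE, with differences of 1.26, 1.01 and 1.07. HPTE was lower than BPA at 24 hr for Cyp4b1, by -0.58 in log2.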

How the results depend on the processing

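The numbers of genes called out of 81 depended on the scaling and on whether a fold was required, with 131 calls on named genes lost under spike-in scaling, 70 with no scaling and 134 when at least 2-fold was asked for as well. Relative to the 75th percentile, spike-in scaling moved the median of all probes by up to -0.55, no scaling by up to 0.37 and quantile scaling by up to 0.15. For E2, BPA and HPTE against vehicle, spike-in scaling called 6, 13 and 12 genes at 2 hr and 30, 1 and 6 at 24 hr, 0 for HPTE against BPA at 24 hr, 1 and 3 for BPA and HPTE against E2 at 2 hr, 18 for HPTE against E2 at 24 hr, and 21, 16 and 18 for 24 against 2 hr of E2, BPA and HPTE. No scaling called 20 for HPTE at 2 hr, 4 and 13 for BPA and HPTE at 24 hr, 0 for HPTE against BPA at 24 hr, 6 and 7 for BPA and HPTE against E2 at 2 hr and 24 for HPTE at 24 against 2 hr. Requiring a log2 difference of 1 as well left 6, 12 and 14 genes at 2 hr and 25, 3 and 7 at 24 hr, 0 for HPTE against BPA at 24 hr, 6 and 4 against E2 at 2 hr, 24 for HPTE against E2 at 24 hr, and 16, 16 and 19 between times. Slide as a block called 2 and 13 for BPA and HPTE at 24 hr, 0 between them, and 9 and 4 against E2 at 2 hr. Fitting only the 2 groups compared called 8 for E2 at 2 hr, 3 for BPA at 24 hr, 0 for HPTE against BPA at 24 hr and 1 for BPA against E2 at 2 hr. Array weights called 25 for BPA at 24 hr, 10 for HPTE against BPA at 24 hr and 19 for HPTE against E2 at 2 hr. HPTE against BPA at 24 hr also gave 2 under normexp with quantile and 2 under quantile scaling (1 higher and 1 lower in each), 3 with probes above background on all arrays and 4 with a variance trend. Without the 2 E2 2 hr arrays rich in pancreas transcripts, chosen after seeing the data, a single E2 2 hr array is left, and no counts are given for that group. HPTE against BPA at 24 hr called 2 in that fit. Spike-in scaling split HPTE against E2 at 24 hr into 10 higher and 8 lower. The cause of these shifts was not tested.

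Leaving out 1 array gave 9 to 15, 31 to 42 and 27 to 36 genes for E2, BPA and HPTE at 2 hr and 38 to 48, 3 to 17 and 19 to 28 at 24 hr. It gave 0 to 1 and 0 to 3 for HPTE against BPA at 2 and 24 hr, 12 to 26 and 5 to 16 for BPA and HPTE against E2 at 2 hr, 32 to 39 and 30 to 39 at 24 hr, and 33 to 46, 37 to 43 and 36 to 42 between times of E2, BPA and HPTE. A gene called by no or few of these settings is limited by 2 or 3 arrays a group and, for 19 of the 81 genes, by signal near background. With the replicate number as a block, E2, BPA and HPTE at 2 hr called 12, 37 and 33 genes, no count moved by over 1.5 times, and 17 named results lost and 4 gained a call. Arrays with the same number did not deviate together (median r = -0.05 over 57 pairs, -0.36 to 0.33), so the numbers do not pair the samples. Arrays on the same slide had a median r of 0.11 over 25 pairs (-0.14 to 0.51), against -0.03 over 146 pairs on different slides (-0.42 to 0.41). The main fit did not include the slide.

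Directions turned for Por with E2 at 24 hr (-0.0104 under normexp with quantile, -0.0655 under quantile scaling) and for BPA against E2 at 24 hr (0.0565 and 0.0653), for Gstp1 with HPTE at 24 hr (-0.26, quantile), for Gstk1 for HPTE against E2 at 2 hr (0.0716 with no scaling, 0.0213 with spike-ins), for Cyp27a1 between times of HPTE (-0.13, spike-ins) and for Cyp2d22 for HPTE against BPA at 2 hr, from -0.35 without BPA 2 hr replicate 1 to 0.46 without its replicate 3. Within slides, called genes kept their sign on every slide holding both groups in all comparisons with vehicle, except Gstm7 with BPA and Cyp20a1 with HPTE at 2 hr, and against E2 at 2 hr except Cyp2j13 (BPA) and Ugt2b34 (HPTE).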
